A study of Mus musculus with 6 samples.

Results

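Gene expression in soft tissue sarcomas of NG2-Cre;p53flox/flox mice was compared with that of NG2 sorted cells across all genes counted. The comparison used 4 of the 6 samples of the series, chosen by their titles: 2 soft tissue sarcomas and 2 preparations of NG2-expressing cells, each sequenced as 1 library. The other 2 samples, osteosarcomas of the same genotype from a tibia and the spine, served as the third group of the model and as the tumour type against which differences were tested. All 3 groups came from mice of mixed background with a Cre transgene named for NG2 and floxed p53 alleles, the gene Trp53. The labels name no wild-type group, so a loss of p53 in Cre-expressing cells can be shared by controls and tumours. The labels describe the NG2 cells as perivascular cells of skeletal muscle, listed as normal tissue, that an antibody to NG2 had sorted. Both sarcomas were primary malignant tumours of subcutaneous tissue, for which no sort is named. Neither the age or sex of the animals nor whether 2 libraries of a group came from separate animals is stated, so p-values measure the spread between libraries, which may be technical. Below, sarcoma means soft tissue sarcoma, and the 2 values given for a group are those of replicates 1 and 2.

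Pericytes are cells of the microvessel wall, and NG2, the proteoglycan encoded by Cspg4, is one of the markers used to sort them. NG2 is also made by other cells, among them glial progenitors, so an NG2-driven Cre is not limited to pericytes. p53 restrains division after DNA damage and oncogenic stress, and sarcomas, tumours of mesenchymal origin, often have its gene disrupted.

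Polyadenylated RNA was read as amplified cDNA, and values are normalised read counts, scaled to the library total after TMM adjustment and given in the usual unit CPM. The 4 libraries held 27693585 to 58126832 counts on genes. Across genes, log2 values of replicates correlated with r = 0.907 in NG2 cells and 0.951 in sarcoma, against 0.705 to 0.751 between the 2 groups. Each group had a lane number of its own in its file names, so lane and group cannot be told apart. Reads outside annotated genes made up 33.2% in both NG2 libraries and 20.8 and 19.5% in sarcoma. The X inactivation RNA Xist was at 347 and 488 CPM in NG2 cells against 0.0839 and 0.135 CPM in sarcoma, whereas the Y-linked Eif2s3y had 0 counts in NG2 cells and 55.4 and 34.9 CPM in sarcoma, so the sex of the animals and the group cannot be told apart either. Immunoglobulin genes took 0.974 and 5.10% of the counts of the NG2 libraries and at most 0.00909% of a sarcoma library.

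Of 19024 genes tested, 1882 rose in sarcoma against NG2 cells (9.89% of those tested) and 1789 fell (9.40%), with edgeR's quasi-likelihood F test and a Benjamini-Hochberg adjusted p under 0.05. In each of the other fits run, all of these genes that were tested kept their direction. Those fits reused the libraries that gave the calls, so this is no independent check. The number called rested on both replicates: without NG2 replicate 1 it was 381 higher and 412 lower, and without NG2 replicate 2 it was 339 and 395. Without sarcoma replicate 1, edgeR called 0 genes, with 2365 higher and 2145 lower at an unadjusted p under 0.05. Without sarcoma replicate 2 it again called 0, with 2347 and 1939 at that unadjusted level. limma-voom called 0 genes without sarcoma replicate 1, with 2711 and 1998 at that level, and 156 higher and 91 lower without replicate 2. With 2 libraries a group, the smallest p of a two-sided exact permutation test is 0.333. TMM scaling put the median log2 fold change of all genes at 0.00, and scaling by total counts alone at 0.15.

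Groups of genes are described below by how many of their tested members rose or fell and by the median log2 fold change of the tested members. The range after a median gives the lowest and highest median over 6 fits that each left out 1 library. For all genes tested the median was 0.00 (range -0.04 to 0.10). Each count is to be read against the shares of all genes tested, 9.89% higher and 9.40% lower. The chart of gene lists shows the shares of tested members for 30 of the groups.

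**Figure D1:**
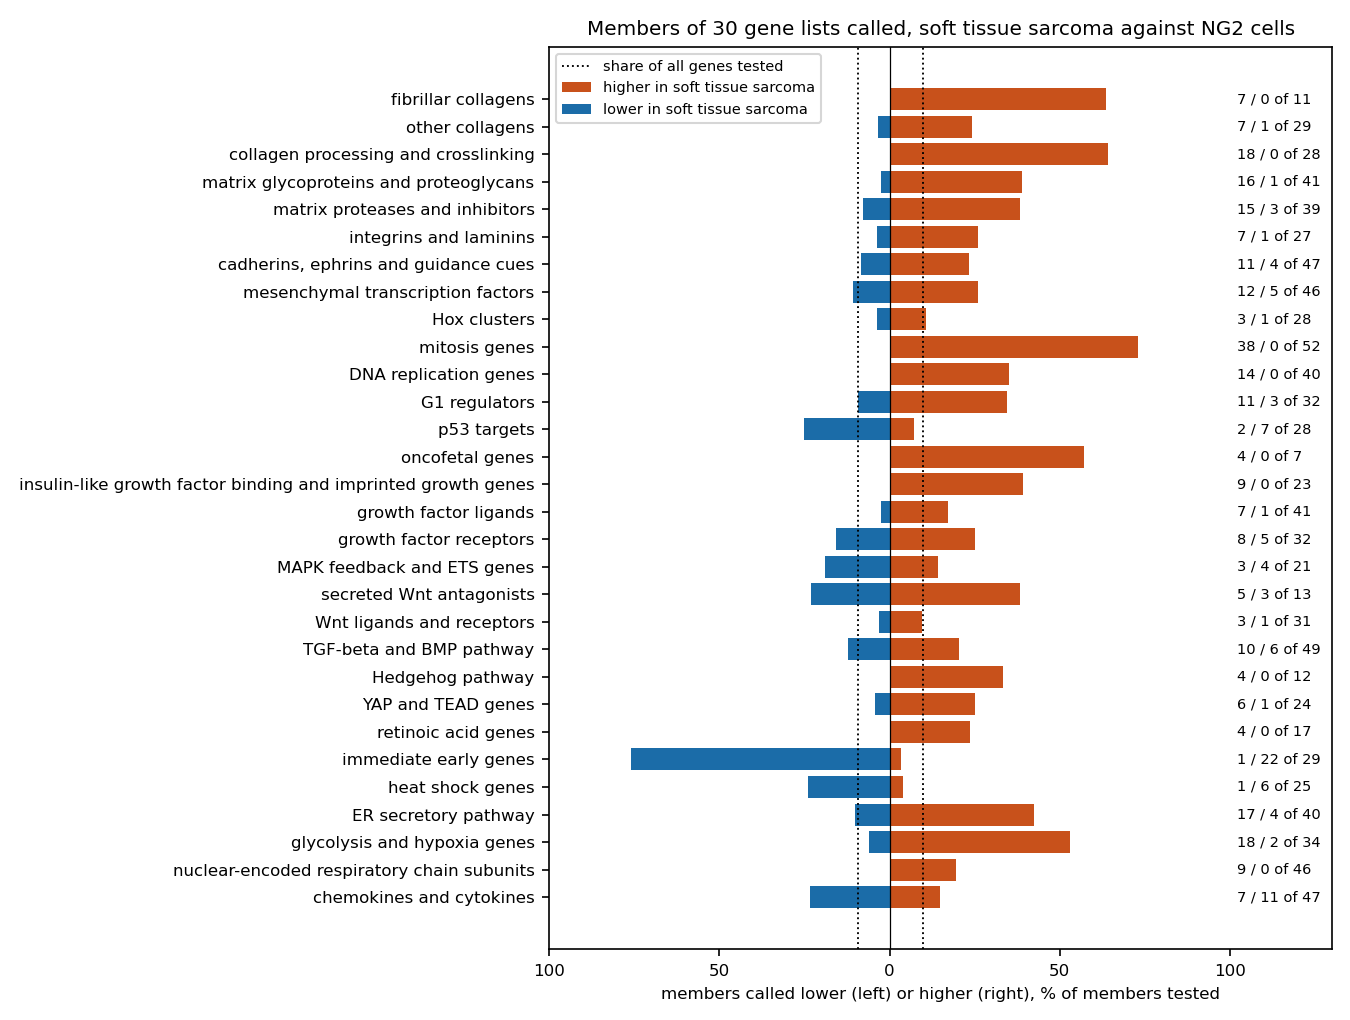
Share of the tested members of 30 gene lists called lower (bars to the left) or higher (bars to the right) in soft tissue sarcoma than in NG2 cells, in percent, with the counts higher / lower of tested at the right. Dotted lines mark the shares among all genes tested, 9.40% lower and 9.89% higher; mitosis genes (38 of 52 higher) and immediate early genes (22 of 29 lower) reach farthest beyond them of the 30 lists drawn.

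The targeted gene was read in every library first. Trp53 (chr11:69580359-69591873 in GRCm38) had 101 and 82.3 CPM in NG2 cells against 31.2 and 27.3 CPM in sarcoma. The log2 fold change was -1.65 ± 0.30 (adjusted p = 0.0199, edgeR), and the 2 groups did not overlap. Whole-gene counts do not separate reads of floxed exons from reads of the rest of the transcript, so this level checks neither deletion nor labels. Reads from cells that did not express Cre are part of it as well.

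Cspg4 (chr9:56865033-56899870), the gene of NG2 itself, had 38.6 and 30.6 CPM in NG2 cells against 188 and 88.7 CPM in sarcoma. The 2 sarcoma values lay above both NG2 values, but the difference did not pass the test (adjusted p = 0.0731, edgeR). Among 20 pericyte and mural cell markers, 1 fell (5.0%, against 9.40% of all genes) and 0 rose (against 9.89%). The median log2 fold change was -0.24 (range -0.44 to 0.05). The one that fell, Rgs5, a regulator of G protein signalling abundant in pericytes, had 772 and 1289.6 CPM in NG2 cells against 151 and 81.3 CPM in sarcoma (log2 fold change -3.15 ± 0.79, adjusted p = 0.0422). The platelet-derived growth factor receptor Pdgfrb was at 20.1 and 28.9 CPM in NG2 cells against 85.6 and 122 CPM in sarcoma, and the intermediate filament gene Nes at 16.9 and 20.6 CPM in NG2 cells against 77.4 and 62.7 CPM in sarcoma, neither past the threshold. None of the 20 markers was at 0 counts in either group. Their summed level was 1130 and 1774 CPM in NG2 cells and 670 and 565 CPM in sarcoma. B cell markers, described below, summed to 14940 and 28420 CPM in the same NG2 libraries. What share of the sorted cells were pericytes was not tested.

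The largest rises included genes of retinoid and Wnt signalling, matrix assembly and cell membranes. They were taken among genes called higher whose groups did not overlap, with at least 10 counts in NG2 cells and 20 CPM in sarcoma. Crabp1 (chr9:54764748-54773110), which encodes a retinoic acid binding protein of the cytoplasm, went from 0.499 and 0 CPM in NG2 cells to 1321 and 280.4 CPM in sarcoma, 3314-fold higher (log2 fold change 11.69 ± 1.88, adjusted p = 0.0203). Replicate 1 held far more of it than replicate 2, and both lay above all NG2 values. In osteosarcoma it had 0 counts, a difference that did not pass the test (adjusted p = 0.0868).

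Wnt5a (chr14:28504750-28527448), a ligand of non-canonical Wnt signalling, had 0.526 and 0 CPM in NG2 cells against 133 and 88.6 CPM in sarcoma and rose 434-fold (adjusted p = 0.0347). Dkk2 (chr3:132085292-132180304), a secreted Wnt antagonist, had 0.637 and 2.36 CPM in NG2 cells against 731 and 194 CPM in sarcoma and rose 306-fold (adjusted p = 0.0231). Both genes were near 0 in NG2 cells, and Dkk2 differed between the 2 sarcomas. Steap2, a metalloreductase, had 57.8 and 72.8 CPM in sarcoma against 0.360 and 0 CPM in NG2 cells, and the related Steap1 had 102 and 176 CPM against 0 counts in NG2 cells. The collagen receptor gene Mrc2 rose 259-fold, from 0.610 and 0.0917 to 93.00 and 85.6 CPM. Tfap2a, a transcription factor of neural crest and skin, had 237 and 55.6 CPM in sarcoma against 0.554 and 0.642 CPM in NG2 cells.

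The chromatin architecture gene Hmga2 (chr10:120361275-120476469), which is expressed in embryos and silent in most adult tissues, had 0.443 and 2.18 CPM in NG2 cells against 331 and 120.1 CPM in sarcoma (170.4-fold, adjusted p = 0.0135). Osteosarcomas held 0.114 and 0.391 CPM of it, and the difference between the tumour types missed the threshold (adjusted p = 0.0583). Among the other large rises were Col7a1, Adamts14, Cthrc1, Gpr176, an orphan receptor, and Slc1a4, a neutral amino acid transporter. Their folds ran from 152-fold for Slc1a4 to 304-fold for Col7a1. In all of them the lower sarcoma library exceeded the higher NG2 library, which the choice of genes required.

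Of the protein-coding genes with 0 counts in both NG2 libraries, 10 had a mean of at least 20 CPM in sarcoma. Steap1 led them with a mean at least 3690.1-fold above the level that 3 counts over both NG2 libraries would give. Brinp3 had 39.4 and 66.3 CPM, AW551984 73.96 and 31.8 CPM and the secreted Wnt modulator Sfrp2 20.5 and 71.5 CPM in sarcoma. Uox, the urate oxidase gene, which is known as a liver gene, had 19.9 and 91.5 CPM in sarcoma and 0 and 0.0356 CPM in osteosarcoma. Prl2c2, a prolactin family gene, had 27.7 and 38.6 CPM, and since near-identical copies of it exist, its counts are uncertain. The Y-linked genes Eif2s3y and Ddx3y stood in the same group.

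**Figure D2:**
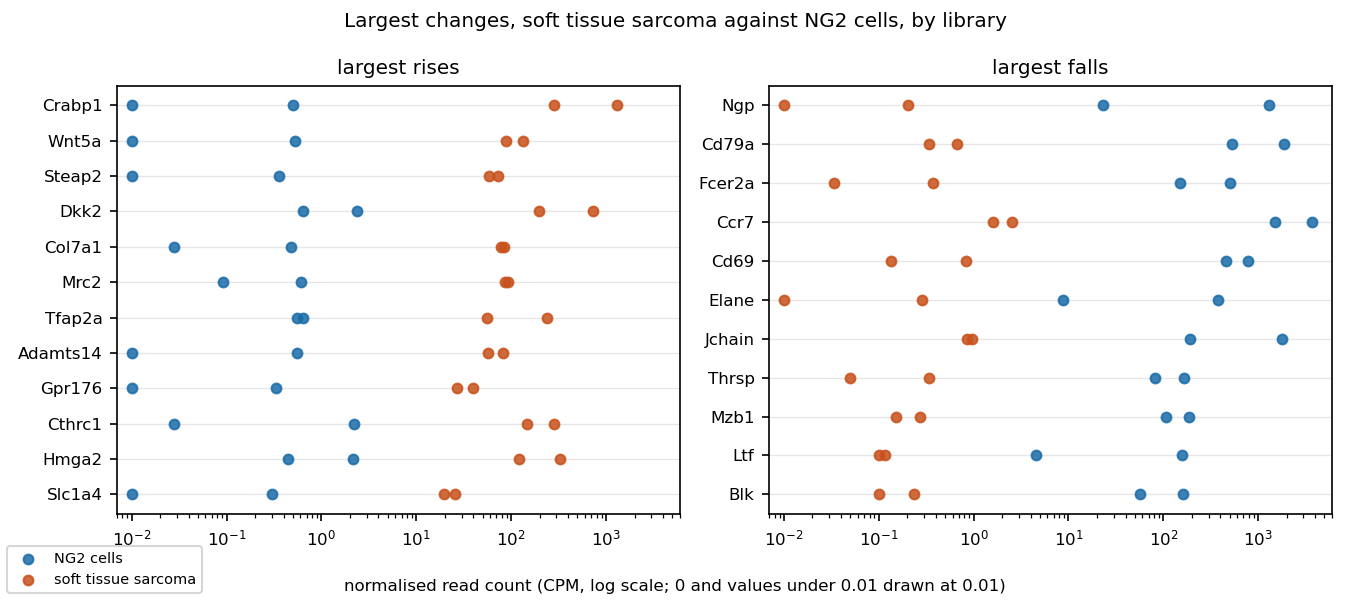
Normalised read counts (CPM, log scale) of the 12 largest rises (left) and 11 of the largest falls (right) among protein-coding genes, 1 point per library, NG2 cells in blue and soft tissue sarcoma in orange; 0 and values under 0.01 are drawn at 0.01. In every gene shown the 2 groups do not overlap, which the choice of genes requires; Ngp, Elane, Ltf and Jchain differ widely between the 2 NG2 libraries.

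The largest falls included genes of B cells and granulocytes. They were again taken among called protein-coding genes whose groups did not overlap. At least 10 counts over both libraries of the lower group and at least 20 CPM on average in the other were required. Cd79a (chr7:24897381-24902197), a signalling chain of the B cell antigen receptor, had 1871 and 524 CPM in NG2 cells against 0.336 and 0.674 CPM in sarcoma and fell 2437-fold (adjusted p = 0.00740). Ccr7, the receptor that draws lymphocytes and dendritic cells to lymph nodes, fell 1252-fold from 3654 and 1522 to 2.52 and 1.58 CPM. Fcer2a, Blk, Mzb1, Jchain and the activation marker Cd69 completed the lymphocyte genes of this group. The granule genes Ngp, Elane and Ltf were low in NG2 replicate 1 and high in replicate 2. Ngp, for example, was at 23.1 and 1298 CPM in the 2 NG2 libraries. Thrsp, a gene of fat synthesis, was the one member not tied to blood cells, at 82.2 and 167 CPM in NG2 cells against 0.0503 and 0.337 CPM in sarcoma.

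Genes with 0 counts in both sarcomas were led by Timp4 (chr6:115241892-115252205), a metalloproteinase inhibitor, with 736 and 539.8 CPM in NG2 cells, at least 18989-fold above the level of 3 counts over both sarcomas. Osteosarcomas held 0 counts of Timp4 too. The carbonic anhydrase gene Car4 had 51.8 and 128 CPM in NG2 cells, Glycam1, a mucin of lymph node vessels, 49.3 and 107 CPM, and the potassium channel gene Kcna1 30.3 and 44.5 CPM. Tph1 and Marco, a scavenger receptor of macrophages, also fell. Prss34 and Ms4a3, granulocyte genes present mainly in NG2 replicate 2, did not pass the test.

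Markers of cell types other than pericytes were read in both groups. All 19 tested B cell markers fell, with a median log2 fold change of -9.37 (range -9.37 to -8.42). Their summed level was 14940.0 and 28420.0 CPM in NG2 cells and 145 and 109 CPM in sarcoma, and no marker was at 0 counts in either group. Pou2af1 and Cd22 fell beside Cd79a. Ms4a1, which had under 10 counts over both sarcomas and so is not among the largest falls named above, fell 5373-fold, from 784 and 312 to 0.0336 and 0.202 CPM. Of immunoglobulin genes 155 of 183 tested fell and of T cell receptor genes 18 of 75, and 0 rose. Among T and NK cell markers 14 of 25 fell, among them Cd8b1, Lck, Cd2 and Cd3d, for a summed 1186 and 1639 CPM in NG2 cells and 115 and 80.3 CPM in sarcoma. T and NK cell markers at 0 counts numbered 0 in both groups. RNA of blood cells was thus measured in the sorted NG2 libraries, and in bulk samples fewer cells of a type and less RNA per cell cannot be told apart.

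Class II antigen presentation and dendritic cell genes fell in 17 of 21 members (median -4.02, range -4.04 to -3.56). Cd74, the invariant chain of class II, had 5213 and 2739 CPM in NG2 cells against 224 and 149 CPM in sarcoma, and H2-Ob, H2-Oa and H2-DMb2 fell further. Macrophage and monocyte genes went the other way: 6 of 24 rose and 0 fell (median 1.31, range 0.72 to 2.46). The 3 chains of complement C1q, a product of tissue macrophages, rose together. C1qa had 20.2 and 21.5 CPM in NG2 cells against 388 and 285 CPM in sarcoma (16.1-fold, adjusted p = 0.00988), C1qc rose 14.2-fold and C1qb 14.1-fold. Csf1r, the receptor by which macrophages sense their growth factors, had 60.8 and 79.1 CPM in NG2 cells against 368 and 359 CPM in sarcoma. The lysozyme gene Lyz2 was at 315 and 916 CPM in NG2 cells against 1771 and 1576 CPM in sarcoma without passing the test (adjusted p = 0.145).

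Neutrophil granule markers summed to 87.05 and 4113 CPM in the 2 NG2 libraries and 297 and 161 CPM in sarcoma, and their median log2 fold change moved from -6.27 without NG2 replicate 1 to -0.77 without NG2 replicate 2. Mast cell markers summed to 621 and 1620.0 CPM in NG2 cells and 170.2 and 23.8 CPM in sarcoma. Kit, the stem cell factor receptor of mast cells, had 41.6 and 107 CPM in NG2 cells against 9.01 and 10.1 CPM in sarcoma. The mast cell protease gene Cma1 was at 52.95 and 0.0674 CPM in the 2 sarcomas and Cpa3 at 14.1 and 0 CPM, higher in replicate 1 than in replicate 2.

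Endothelial genes fell in 7 of 23 members (median -1.69, range -2.14 to -1.26). Pecam1 had 384 and 592 CPM in NG2 cells against 69.9 and 56.4 CPM in sarcoma, Ptprb 264 and 443 CPM in NG2 cells against 29.6 and 14.9 CPM in sarcoma, and the receptors Flt1 and Tek fell as well, while Cdh5 (81.04 and 161 CPM in NG2 cells against 33.2 and 21.4 CPM in sarcoma) did not pass. Schwann cell and neural crest genes fell in 11 of 19 members and rose in 2. The myelin gene Mbp fell 18.8-fold, and the glial regulator Sox10 was at 4.88 and 2.64 CPM in NG2 cells and 0 counts in sarcoma. The 2 members that rose were Tfap2a and Gap43, a growth cone protein, which went from 0 and 0.206 to 34.8 and 46.7 CPM.

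Adipocyte genes fell in 6 of 14 tested members, with 0 higher. Lipoprotein lipase, Lpl, had 855 and 1351 CPM in NG2 cells against 14.1 and 4.85 CPM in sarcoma, and the fatty acid binding protein gene Fabp4 had 432 and 871 CPM in NG2 cells against 20.5 and 38.9 CPM in sarcoma. The water channel gene Aqp7 fell 574-fold. The satellite cell regulator Pax7 was at 2.58 and 8.69 CPM in NG2 cells and 0 counts in sarcoma, and Myf5 also fell. Among myogenic genes, Chrna1, a subunit of the acetylcholine receptor, was the 1 member that rose, from 0.222 and 0 to 47.2 and 59.8 CPM. The myogenic regulator Myod1 was at 1.27 and 1.42 CPM in NG2 cells and 0 counts in sarcoma, and 0 of 24 tested muscle fibre genes were called.

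**Figure D3:**
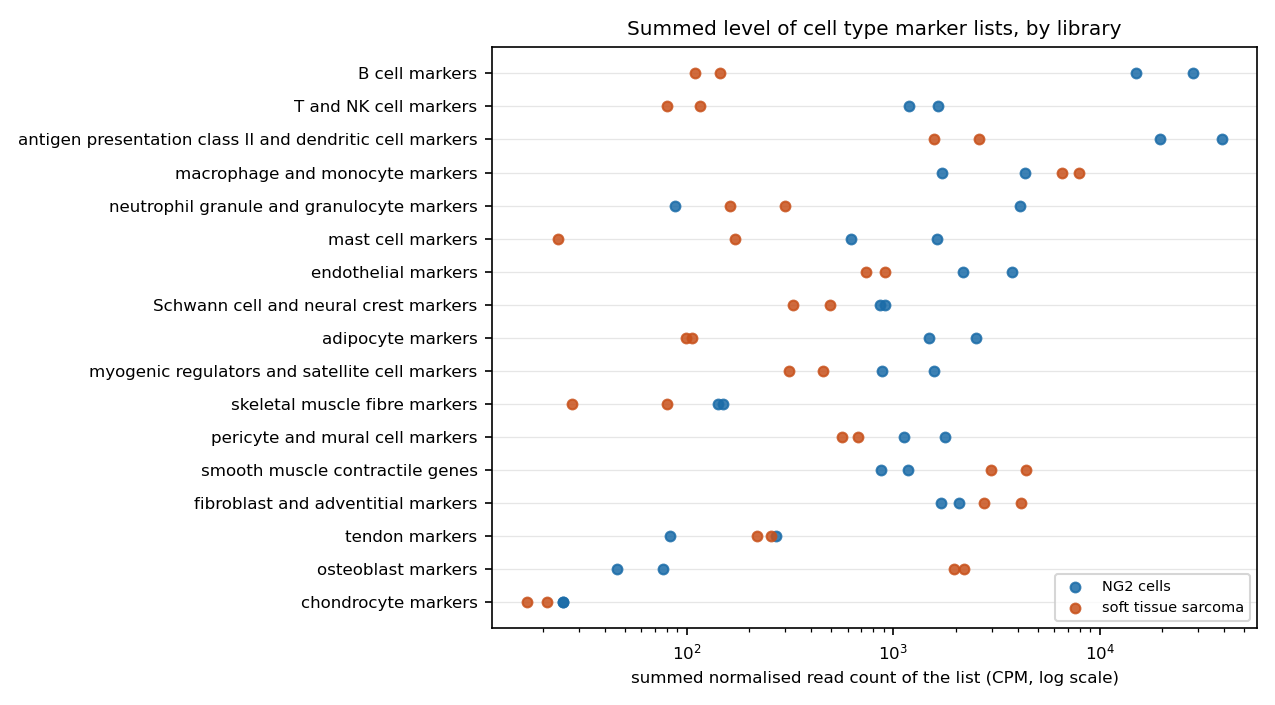
Summed normalised read count (CPM, log scale) of 17 marker lists, 1 point per library, NG2 cells in blue and soft tissue sarcoma in orange. B cell, T and NK cell, class II, endothelial and adipocyte sums are lower in both sarcomas than in both NG2 libraries. So are the pericyte and mural cell, Schwann cell, mast cell, myogenic, muscle fibre and chondrocyte sums. Macrophage, smooth muscle contractile, fibroblast and osteoblast sums are higher, and the osteoblast sum is mostly Spp1, at 1916 and 2161 CPM in sarcoma.

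Lineage markers of connective tissue were mixed. Of fibroblast and adventitial markers 4 of 26 rose (15.4%, against 9.89% of all genes) and 3 fell (11.5%, against 9.40%). Their median was 1.02 (range 0.17 to 1.29). Igfbp4 and Igfbp6 rose 8.69-fold and 16.7-fold, whereas Lsp1 fell 4.12-fold and Sfrp1 46.1-fold. The fibroblast receptor Pdgfra had 20.8 and 10.6 CPM in NG2 cells against 328 and 320.3 CPM in sarcoma and just missed the threshold (adjusted p = 0.0551). Of 21 tested contractile genes 3 rose (14.3%, against 9.89% of all genes) and 3 fell (14.3%, against 9.40%). Cald1 and Tpm1, general cytoskeletal genes, rose 7.44-fold and 9.45-fold, while Pln, Lmod1 and Myh11, the smooth muscle myosin, fell. Acta2, smooth muscle actin, was at 156 and 197 CPM in NG2 cells against 566 and 329 CPM in sarcoma (adjusted p = 0.157).

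Of 21 tested osteoblast markers, 2 rose (9.52%, against 9.89% of all genes) and 1 fell (4.76%, against 9.40%). Spp1, osteopontin, which macrophages make too, had 5.98 and 31.8 CPM in NG2 cells against 1916 and 2161 CPM in sarcoma (108-fold, adjusted p = 0.0194). Alpl, the alkaline phosphatase of mineralising cells, fell 11.2-fold. The bone matrix gene Ibsp was at 0.956 and 1.35 CPM in sarcoma and 0 counts in NG2 cells. Scx, the tendon transcription factor, rose at a low level (1.98 and 0.809 CPM in sarcoma against 0.166 and 0.0688 CPM in NG2 cells), and Chodl had 16.6 and 10.02 CPM in NG2 cells and 0 counts in sarcoma. Acan, the proteoglycan of cartilage, reached 1.04 and 1.82 CPM in sarcoma from 0 counts.

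Genes of the extracellular matrix rose in large numbers, as the chart of gene lists shows. Fibrillar collagens build the tensile fibres of connective tissue, and 7 of 11 tested members rose and 0 fell (median 4.60, range 4.03 to 5.29). Col1a1 (chr11:94936224-94953042) and Col1a2 (chr6:4504814-4541544), the 2 chains of type I collagen, rose 69.02-fold and 35.3-fold. Col1a1 had 41.3 and 19.1 CPM in NG2 cells against 2389 and 1779 CPM in sarcoma (log2 fold change 6.11 ± 0.59, adjusted p = 0.00846), and Col1a2 had 104 and 61.6 CPM in NG2 cells against 3415 and 2414 CPM in sarcoma. Col3a1 (chr1:45311538-45349706), the chain of type III collagen, had 28.5 and 17.8 CPM in NG2 cells against 2423 and 1814 CPM in sarcoma and rose 91.5-fold (adjusted p = 0.0371). Col5a1 and Col5a2, which start fibril formation, rose 63.7-fold and 37.4-fold. In each of these 5 genes both sarcomas stood far above both NG2 libraries, which their choice among called genes made likely.

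Among other collagens 7 of 29 rose and 1 fell. Col7a1 (chr9:108953586-108984875), the anchoring fibril collagen of skin, had 0.0277 and 0.481 CPM in NG2 cells against 83.2 and 78.3 CPM in sarcoma, and osteosarcomas held 1.44 and 4.34 CPM. Col14a1 and Col6a3 rose 14.5-fold and 35.7-fold. The other chains of type VI collagen, Col6a1 (24.96 and 10.4 CPM in NG2 cells against 722 and 541 CPM in sarcoma) and Col6a2 (8.37 and 11.8 CPM in NG2 cells against 492 and 323 CPM in sarcoma), were at adjusted p = 0.0631 and 0.0558. The basement membrane chain Col4a3 was the member that fell.

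Enzymes and chaperones that fold, modify, trim and crosslink collagen rose in 18 of 28 members, and 0 fell (median 2.93, range 2.67 to 3.46). Loxl3, a lysyl oxidase that crosslinks fibres, had 4.18 and 6.42 CPM in NG2 cells against 510.2 and 198 CPM in sarcoma (66.7-fold, adjusted p = 0.00846). The collagen chaperone genes Serpinh1 and Fkbp10 rose 7.26-fold and 91.1-fold, the prolyl hydroxylase gene P3h1 12.3-fold, and the propeptidase enhancer Pcolce 20.1-fold. Adamts14, which trims procollagen ends, had 81.6 and 56.6 CPM in sarcoma against 0 and 0.550 CPM in NG2 cells. The oxidase Lox itself was at 1.63 and 6.14 CPM in NG2 cells against 58.1 and 89.4 CPM in sarcoma (adjusted p = 0.0603).

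Glycoproteins and proteoglycans of the matrix rose in 16 of 41 members and fell in 1 (median 2.72, range 2.52 to 2.90). Biglycan, Bgn (chrX:73483602-73495933), had 66.4 and 68.7 CPM in NG2 cells against 1603 and 1442 CPM in sarcoma (22.5-fold, adjusted p = 0.00730). Efemp2, needed for elastic fibres, rose 14.2-fold, Efemp1 32.6-fold, the basement membrane gene Hspg2 5.82-fold and the microfibril gene Mfap2 82.9-fold. Fibronectin, Fn1, was at 36.8 and 252 CPM in NG2 cells against 2134 and 1866 CPM in sarcoma, and its spread between NG2 libraries left it at an adjusted p of 0.0999. Periostin, Postn, was at 54.3 and 40.8 CPM in NG2 cells against 1488 and 1773 CPM in sarcoma (adjusted p = 0.0816).

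Matrix proteases and their inhibitors rose in 15 of 39 members and fell in 3. Adam12 had 54.8 and 45.7 CPM in sarcoma against 1.97 and 1.19 CPM in NG2 cells, and Adamts7 32.9 and 44.8 CPM in sarcoma against 0.471 and 1.63 CPM in NG2 cells. The urokinase gene Plau rose 5.56-fold from 19.7 and 15.6 to 112 and 83.9 CPM, while Plaur, the gene of its receptor, fell 4.47-fold from 499 and 351 to 90.4 and 99.6 CPM. Mmp3 was at 0 and 9.24 CPM in NG2 cells against 944 and 375 CPM in sarcoma and Mmp9 at 1.44 and 21.1 CPM in NG2 cells against 263 and 121 CPM in sarcoma, with adjusted p-values of 0.103 and 0.151. Of 27 tested integrins and laminins 7 rose (25.9%, against 9.89% of all genes) and 1 fell (3.70%, against 9.40%). Those that rose included Itga5, a fibronectin receptor chain (10.8-fold), Itgb5 and Lamb1. The lymphocyte integrin Itga4 fell 6.15-fold.

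Adhesion and guidance genes showed 11 of 47 higher and 4 lower. Slit3 had 82.8 and 74.3 CPM in sarcoma against 1.94 and 3.30 CPM in NG2 cells (29.9-fold, adjusted p = 0.00730), Cdh11, the cadherin of mesenchymal cells, rose 23.5-fold, and Sema5a 7.88-fold. The ephrin gene Efna4 reached 6.73 and 12.1 CPM from 0 counts in NG2 cells. Plxna2, a semaphorin receptor, fell 6.09-fold.

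**Figure D4:**
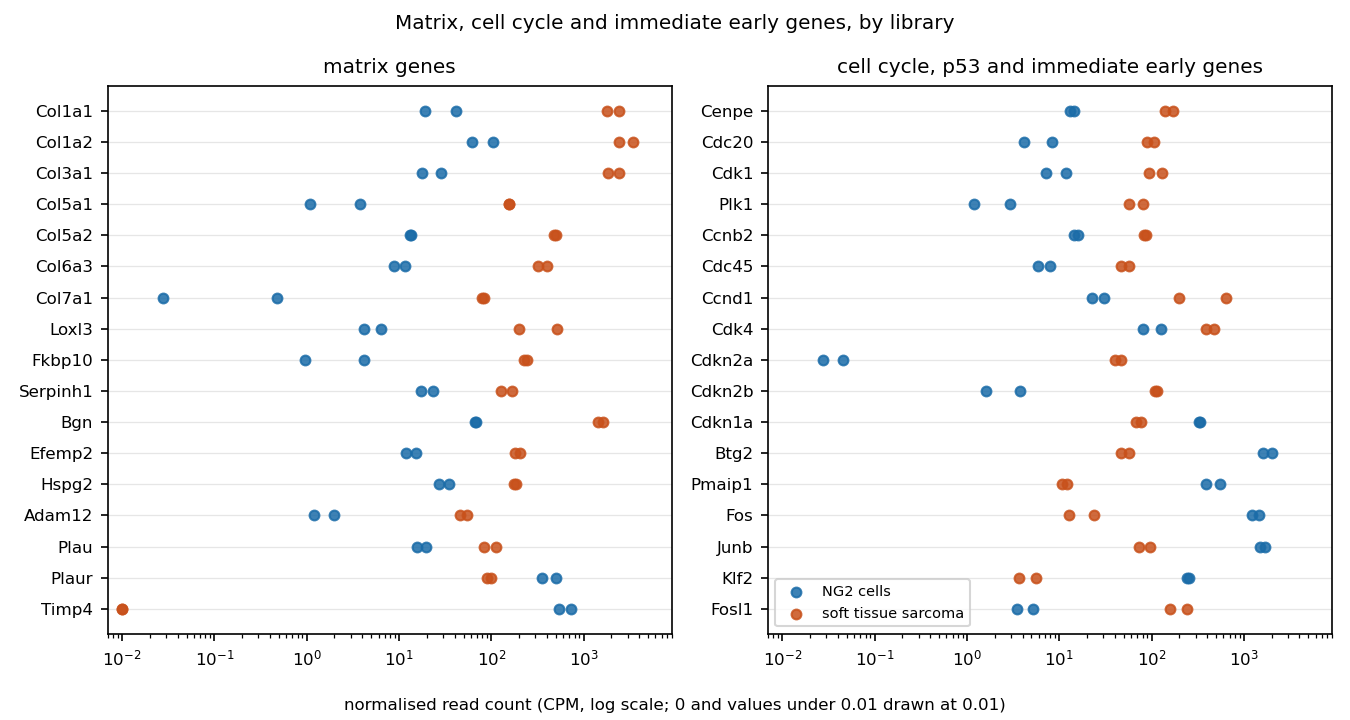
Normalised read counts (CPM, log scale) of 17 matrix genes (left) and 17 cell cycle, p53 and immediate early genes (right), 1 point per library, NG2 cells in blue and soft tissue sarcoma in orange; 0 and values under 0.01 are drawn at 0.01. All genes shown passed the test; the matrix genes lie to the right in sarcoma except Plaur and Timp4, and Cdkn1a, Btg2, Pmaip1, Fos, Junb and Klf2 lie to the left.

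Transcription factors of mesenchymal development rose in 12 of 46 tested members and fell in 5 (median 2.65, range 1.99 to 2.72). Twist1 had 0.499 and 0.298 CPM in NG2 cells against 24.4 and 22.2 CPM in sarcoma (58.4-fold, adjusted p = 0.00806). Prrx1, a limb and craniofacial mesenchyme factor, had 2.99 and 4.29 CPM in NG2 cells against 309.7 and 164 CPM in sarcoma and rose 64.96-fold, and Osr1 rose 55.4-fold. Twist2 was at 0.0277 and 0 CPM in NG2 cells, a single count, and 24.5 and 20.1 CPM in sarcoma, against 0.0569 and 0.142 CPM in osteosarcoma. Tead1 and Zfhx4 rose 10.3-fold and 7.41-fold. The factors Zeb1 (128 and 141 CPM in NG2 cells against 146 and 124 CPM in sarcoma) and Zeb2 (75.3 and 157 CPM in NG2 cells against 115 and 115 CPM in sarcoma), known for epithelial-mesenchymal transition, and Runx2 (33.8 and 60.5 CPM in NG2 cells against 45.4 and 57.6 CPM in sarcoma), the osteoblast regulator, did not pass. Sox9 was at 7.67 and 15.02 CPM in NG2 cells against 227 and 113 CPM in sarcoma (adjusted p = 0.0551).

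T-box and Hox genes, which set position along limbs and trunk, included members that rose and members that fell. Of 10 tested T-box genes 2 rose (20.0%, against 9.89% of all genes) and 1 fell (10.0%, against 9.40%). Tbx15 and Tbx18 rose 128-fold and 33.95-fold, and Eomes, which lymphocytes express, fell. In the Hox clusters 3 of 28 tested genes rose (10.7%, near the share of all genes) and 1 fell (3.57%, under that share). The 3 that rose were neighbours of the HoxC cluster: Hoxc6 rose 49.2-fold, Hoxc8 had 0.305 and 0.527 CPM in NG2 cells against 36.5 and 27.8 CPM in sarcoma, and Hoxc9 0.277 and 0.321 CPM in NG2 cells against 2.92 and 18.03 CPM in sarcoma. Hoxc10 differed between the sarcomas, at 0.117 and 39.7 CPM. Hoxa10 was at 1.47 and 7.47 CPM in NG2 cells and 0 counts in sarcoma.

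Genes of mitosis rose in 38 of 52 tested members and 0 fell, with a median of 2.36 (range 2.33 to 2.48). Cenpe, the kinetochore motor, had 13.1 and 14.4 CPM in NG2 cells against 141 and 171 CPM in sarcoma (11.3-fold, adjusted p = 0.00730). Cdc20, an activator of the anaphase promoting complex, had 8.39 and 4.20 CPM in NG2 cells against 89.4 and 105 CPM in sarcoma and rose 15.5-fold. The mitotic kinases Cdk1 and Plk1 rose 11.7-fold and 33.6-fold, and cyclin B2, Ccnb2, 5.57-fold. In all 5 genes the lower sarcoma value exceeded the higher NG2 value, which their choice among called genes made likely. Mki67, the gene of the Ki-67 antigen, was at 27.4 and 68.6 CPM in NG2 cells against 101 and 94.6 CPM in sarcoma (adjusted p = 0.201). DNA replication genes rose in 14 of 40 members and 0 fell (median 1.21, range 1.07 to 1.26), among them Cdc45 (7.56-fold), Clspn and Uhrf1. The clamp gene Pcna was at 215 and 136 CPM in NG2 cells against 110.0 and 96.4 CPM in sarcoma, without passing.

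Mitosis genes are known to carry CCAAT boxes and CHR elements close to their starts, so the 250 bases before the start were searched on both strands for CCAAT and for TTTGAA, the letters used here for CHR. The windows came from RefSeq promoter sequences on GRCm38.p6, 1 per gene, and 44 mitosis genes were matched. CCAAT was present in 31 of these 44 windows (70.5%), against 35.8% of 18124 windows of all genes. TTTGAA was present in 16 of 44 (36.4%), against 14.2% of all windows. All genes called higher, by comparison, held CCAAT in 35.6% and TTTGAA in 10.8% of 1393 windows, and genes called lower in 36.1 and 11.2% of 1174. Among the mitosis genes themselves, CCAAT was present in 22 of 30 windows of genes that rose and 9 of 14 of genes that did not pass. DNA replication genes held CCAAT in 19 of 32 windows and TTTGAA in 4. A match of letters is a description and not a site of binding. Windows of 3 mitosis genes that held both are shown 5′ to 3′ along the gene, with either motif or its reverse complement in capitals. The 3 genes were picked by low p from only part of the genes whose window held both. Genes with a lower p may therefore not be shown. The 3 windows let a reader see how the letters sit before genes that rose together.
Cdc20: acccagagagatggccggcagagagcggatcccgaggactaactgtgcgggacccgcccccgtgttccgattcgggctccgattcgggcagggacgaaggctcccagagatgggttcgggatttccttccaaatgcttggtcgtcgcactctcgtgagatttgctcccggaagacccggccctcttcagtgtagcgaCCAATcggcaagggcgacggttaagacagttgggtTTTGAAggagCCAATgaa
Cdk1: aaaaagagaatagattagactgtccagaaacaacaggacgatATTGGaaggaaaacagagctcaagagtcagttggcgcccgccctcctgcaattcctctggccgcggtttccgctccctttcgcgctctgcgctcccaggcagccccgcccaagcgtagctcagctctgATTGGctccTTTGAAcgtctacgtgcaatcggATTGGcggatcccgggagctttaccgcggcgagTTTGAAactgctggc
Ccnb2: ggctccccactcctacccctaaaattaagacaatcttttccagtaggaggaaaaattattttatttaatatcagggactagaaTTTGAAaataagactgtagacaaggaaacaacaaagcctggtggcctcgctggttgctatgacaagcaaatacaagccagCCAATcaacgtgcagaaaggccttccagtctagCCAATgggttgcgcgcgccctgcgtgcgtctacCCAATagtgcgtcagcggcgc

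The windows lie on the minus strand of chr4:118437344-118437593 (Cdc20), chr10:69352913-69353162 (Cdk1) and chr9:70421555-70421804 (Ccnb2). Cdc20 held 2 CCAAT matches and 1 TTTGAA match, Cdk1 3 and 2, and Ccnb2 3 and 1. In Ccnb2 the TTTGAA match lay farther from the start than all 3 CCAAT matches, so the arrangement was not shared by the windows.

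Regulators of entry into the cycle changed in both directions, with 11 of 32 higher and 3 lower. Cdkn2a (chr4:89274471-89294653), the locus of the inhibitors p16 and p19Arf, had 0.0277 and 0.0458 CPM in NG2 cells against 47.1 and 40.00 CPM in sarcoma. It held 3 counts over both NG2 libraries, so no fold is given, and its adjusted p was 0.00730. Its neighbour Cdkn2b, the gene of p15, had 3.74 and 1.60 CPM in NG2 cells against 108 and 113 CPM in sarcoma (41.4-fold, adjusted p = 0.00871). Both genes were also above NG2 cells in osteosarcoma, at 13.9 and 7.68 CPM for Cdkn2a and 37.1 and 19.8 CPM for Cdkn2b. Cdk4 rose 4.16-fold and Skp2, which targets p27 for destruction, 13.03-fold. Cyclin D1, Ccnd1, had 647 and 197 CPM in sarcoma against 30.9 and 22.7 CPM in NG2 cells (15.8-fold), with replicate 1 above replicate 2. Cdkn1a, the gene of p21, fell 4.63-fold from 336 and 330.1 to 67.3 and 76.5 CPM. Myc was at 497 and 286 CPM in NG2 cells against 160.4 and 213 CPM in sarcoma (adjusted p = 0.126).

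Known targets of p53 fell in 7 of 28 members and rose in 2 (median -0.79, range -0.77 to -0.63). Btg2, an antiproliferative gene, had 1629.9 and 1996 CPM in NG2 cells against 56.9 and 46.5 CPM in sarcoma (35.1-fold, adjusted p = 0.00730). The pro-apoptotic genes Pmaip1 (Noxa) and Fas fell 40.8-fold and 9.51-fold, and Trp53inp1 15.2-fold. Mdm2, whose product degrades p53, fell 2.60-fold from 85.2 and 86.7 to 36.00 and 30.2 CPM. Phlda3 and Zmat3 were the 2 that rose, and Bax was at 121 and 93.3 CPM in NG2 cells against 134 and 125 CPM in sarcoma. Btg2 is also counted among the immediate early genes below, which fell as a group.

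Of 32 genes known to be altered in human sarcomas, 4 rose and 8 fell. Hmga2 and Cdk4 rose, and Mdm4, Braf, Kit and Trp53 were among those that fell. Nras had one of the log2 fold changes nearest 0, at 260.3 and 285 CPM in NG2 cells against 247 and 299 CPM in sarcoma.

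Oncofetal genes, active in embryos and tumours, rose in 4 of 7 tested members and 0 fell (median 5.05, range 4.17 to 6.10). Igf2bp2 (chr16:22059009-22163299), an RNA binding protein of growth control, had 0.803 and 1.33 CPM in NG2 cells against 106 and 94.01 CPM in sarcoma (93.1-fold, adjusted p = 0.00871), and osteosarcomas held 1.40 and 0.391 CPM. Hmga1 had 368 and 135 CPM in sarcoma against 11.5 and 3.67 CPM in NG2 cells. Afp, alpha-fetoprotein, was at a low 5.55 and 2.26 CPM in sarcoma. The let-7 regulator Lin28a was at 0.0277 and 3.26 CPM in NG2 cells and 0 counts in both sarcomas, and Lin28b was at 0 counts in NG2 cells and 0.185 and 0 CPM in sarcoma. Neither passed the filter on counts, so neither was tested.

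Imprinted genes and IGF binding proteins rose in 9 of 23 tested members and 0 fell (median 3.12, range 2.33 to 3.63). Peg10 had 17.3 and 7.31 CPM in sarcoma against 0.388 and 0.413 CPM in NG2 cells, Igfbp3 rose 10.4-fold, and Dlk1, a membrane protein of immature mesenchyme, went from 0.139 and 0.0917 to 8.22 and 2.97 CPM. The long non-coding RNA Meg3 of the Dlk1 locus was at 6.48 and 7.31 CPM in NG2 cells against 199.6 and 199.9 CPM in sarcoma, with 0.227 and 5.51 CPM in osteosarcoma. H19 was at 131 and 10.9 CPM in the 2 sarcomas, far higher in replicate 1.

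Genes of retinoid handling rose in 4 of 17 tested members and 0 fell. Beside Crabp1, Crabp2, another cytoplasmic binding protein of retinoic acid, had 89.8 and 96.5 CPM in sarcoma against 1.80 and 0.688 CPM in NG2 cells (75.1-fold, adjusted p = 0.0329), and Stra6, the membrane receptor for the retinol carrier protein, 14.8 and 47.8 CPM in sarcoma against 0.471 and 0.0229 CPM in NG2 cells. The nuclear receptors Rara (24.1 and 13.5 CPM in NG2 cells against 14.4 and 10.1 CPM in sarcoma) and Rarg (3.63 and 9.38 CPM in NG2 cells against 23.8 and 12.97 CPM in sarcoma) did not pass.

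Growth factor ligands rose in 7 of 41 members and 1 fell. Pdgfc, a ligand of Pdgfra, had 2.47 and 1.79 CPM in NG2 cells against 53.1 and 62.3 CPM in sarcoma (27.1-fold, adjusted p = 0.00730). Vegfd went from 0 and 0.160 to 23.99 and 19.6 CPM, Angptl4 rose 10.7-fold and pleiotrophin, Ptn, 6.92-fold. Ntf3, a neurotrophin, had 10.5 and 9.01 CPM in NG2 cells and 0 counts in sarcoma. Of the receptors, Axl had 27.3 and 34.4 CPM in NG2 cells against 501 and 353 CPM in sarcoma (13.8-fold), the fibroblast growth factor receptor Fgfr1 rose 12.5-fold and the collagen receptor Ddr2 11.5-fold. Erbb3, a receptor of Schwann cells, fell 33.2-fold, beside the fall of Mbp given above.

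Among targets and feedback genes of MAP kinase signalling, Fosl1 (chr19:5447547-5455946), which encodes the AP-1 subunit Fra-1, had 3.46 and 5.14 CPM in NG2 cells against 159 and 239 CPM in sarcoma (46.2-fold, adjusted p = 0.00730). Etv4 had 44.9 and 52.3 CPM in sarcoma against 0.305 and 1.15 CPM in NG2 cells, Spred3 rose 16.5-fold, and the phosphatase gene Dusp5 fell 11.4-fold. Ets1, which lymphocytes and vessels express, fell 10.00-fold. The feedback gene Dusp6 was at 109.9 and 116 CPM in NG2 cells against 189.8 and 124 CPM in sarcoma and Etv5 at 35.5 and 19.7 CPM in NG2 cells against 80.7 and 62.2 CPM in sarcoma, neither past the threshold.

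Wnt pathway genes changed in both directions. Of 13 tested antagonists 5 rose and 3 fell. Dkk3 had 354 and 83.7 CPM in sarcoma against 2.66 and 1.31 CPM in NG2 cells, beside Dkk2 and Sfrp2, while Sfrp5 was at 37.5 and 37.9 CPM in NG2 cells against 0 and 0.0337 CPM in sarcoma. Of the ligands and receptors 3 of 31 tested rose (9.68%, against 9.89% of all genes) and 1 fell. The agonist Rspo4 reached 7.55 and 28.5 CPM from 0 counts, Fzd2 rose 7.61-fold and Fzd4 fell 6.85-fold. Among target genes Ccn4 (Wisp1) had 139 and 207 CPM in sarcoma against 1.91 and 4.75 CPM in NG2 cells and Apcdd1 rose 22.7-fold. Axin2, the most used readout of the canonical pathway, was at 1.03 and 5.07 CPM in NG2 cells against 1.48 and 2.19 CPM in sarcoma. Lef1 and Tcf7, which T cells express, fell beside the T cell markers; the part of those cells was not tested.

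In the TGF-beta and BMP pathway 10 of 49 members rose and 6 fell. Fstl1 had 80.5 and 71.5 CPM in NG2 cells against 1269 and 1147 CPM in sarcoma (15.9-fold), the activin subunit Inhba rose 15.7-fold and the receptor Bmpr1b reached 9.33 and 19.3 CPM from 0 counts. The inhibitor Skil fell 5.81-fold. Hedgehog genes rose in 4 of 12 tested members and 0 fell: Smo, the signal transducer, rose 7.53-fold, and the effectors Gli3 and Gli2 10.6-fold and 20.5-fold. The pathway's own target Gli1 was at 0.268 and 0 CPM in sarcoma and Ptch1 at 1.33 and 2.56 CPM, and neither passed. Of 18 tested Notch genes 4 fell (22.2%, against 9.40% of all genes) and 1 rose (5.56%, against 9.89%). Mfng (4.48-fold) and Hes1 (3.15-fold) were among those that fell. YAP and TEAD genes rose in 6 of 24 members, among them Tead1, Axl, tissue factor F3 (26.1-fold) and the coactivator Wwtr1 (4.25-fold), while the kinase Lats2 fell 5.86-fold. Yap1 was at 4.13 and 15.96 CPM in NG2 cells against 40.8 and 24.8 CPM in sarcoma.

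Immediate early genes, induced within minutes by serum, stress or tissue handling, fell in 22 of 29 tested members and rose in 1 (median -4.22, range -4.31 to -4.003). Atf3 had 706 and 717 CPM in NG2 cells against 25.8 and 14.9 CPM in sarcoma (35.00-fold, adjusted p = 0.00730). Junb fell 18.6-fold from 1679.7 and 1483 to 96.9 and 72.8 CPM, Jund 16.8-fold and Klf2 53.4-fold. Fos, the best known gene of the group, had 1209 and 1474 CPM in NG2 cells against 23.7 and 12.8 CPM in sarcoma (73.4-fold). The 1 member that rose was Fosl1, given above. Jun was at 297 and 490.2 CPM in NG2 cells against 175 and 106 CPM in sarcoma (adjusted p = 0.141).

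Heat shock genes fell in 6 of 25 tested members and rose in 1. Dnajb1 had 1164 and 1068 CPM in NG2 cells against 109 and 168 CPM in sarcoma (8.07-fold, adjusted p = 0.00871), Dnaja1 fell 4.75-fold and the inducible chaperone Hspa1b 15.1-fold. The members of both lists that fell were thus higher in cells that had been sorted than in tumours for which no sort is named. Handling of the samples and the group cannot be told apart in this design.

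Genes of the secretory pathway, which carries collagen and other matrix proteins out of the cell, rose in 17 of 40 members and fell in 4 (median 1.04, range 0.90 to 1.14). Kdelr3, a receptor that returns chaperones to the endoplasmic reticulum, had 7.15 and 5.75 CPM in NG2 cells against 211 and 376 CPM in sarcoma (45.5-fold, adjusted p = 0.00730). Sec24d, a coat protein of vesicles that export procollagen, rose 9.35-fold, Calu 6.10-fold, Ssr2 5.15-fold and Kdelr2 4.66-fold. The stress genes Herpud1 and Ddit3 were among the 4 that fell, and the chaperone Hspa5 was at 4656 and 2826 CPM in NG2 cells against 1587 and 1894 CPM in sarcoma without passing.

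Glycolysis and hypoxia genes rose in 18 of 34 tested members and fell in 2 (median 1.75, range 1.41 to 1.93). Tpi1 had 63.4 and 54.9 CPM in NG2 cells against 470.0 and 658 CPM in sarcoma (9.53-fold, adjusted p = 0.00863). The lactate exporter gene Slc16a3 rose 54.6-fold from 0.831 and 2.45 to 71.5 and 109 CPM, and Pgam1, Pfkm and Pgk1 rose 7.63-fold, 10.6-fold and 6.72-fold. Epas1, a hypoxia-inducible factor abundant in vessels, fell 15.9-fold, beside the endothelial markers. Nuclear genes of the respiratory chain rose in 9 of 46 tested members and 0 fell, with Ndufb9 at 4.33-fold, while 3 of 17 tested genes of the mitochondrial genome fell and 0 rose.

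Chemokines and cytokines fell in 11 of 47 members and rose in 7. Ccl22, a product of dendritic cells, had 126 and 138 CPM in NG2 cells against 3.14 and 1.82 CPM in sarcoma (52.7-fold, adjusted p = 0.00730), and Ccl4 and Ltb fell 12.6-fold and 14.5-fold. Genes that rose included the 2 ligands of Csf1r: Il34 had 12.4 and 12.6 CPM in NG2 cells against 150.4 and 136 CPM in sarcoma (11.4-fold), and Csf1 rose 9.74-fold. The monocyte attractants Ccl7 and Ccl2 rose 3.53-fold and 2.68-fold. They moved beside the macrophage list above, and the part of macrophages in their levels was not tested. Among checkpoint and immune evasion genes, galectin-1, Lgals1, had 229.7 and 332 CPM in NG2 cells against 9288 and 9549 CPM in sarcoma (33.6-fold, adjusted p = 0.00730), Cd276 (B7-H3) rose 30.2-fold, and Cd274 (PD-L1) and Ctla4 fell 19.1-fold and 48.6-fold. Of class I genes 3 of 20 fell, a share above the 9.40% of all genes tested. Of interferon-stimulated genes 1 of 32 fell, Irf1, a share under that of all genes, and no member of either list rose.

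Lgals1 was also the most abundant protein-coding gene of sarcoma per length of exon, with 311 CPM per kb in NG2 cells and 10430.2 in sarcoma. S100a6 and Apoe were the other genes among the 10 most abundant in sarcoma that rose, at 88.4 CPM per kb in NG2 cells and 3422 in sarcoma for S100a6 and 351 CPM per kb in NG2 cells and 3543 in sarcoma for Apoe. The cytoskeletal Actb (3234 CPM per kb in NG2 cells and 4080.2 in sarcoma) and ribosomal Fau (8939 CPM per kb in NG2 cells and 4522 in sarcoma) stood in the lists of both groups. In NG2 cells the class II genes H2-Ab1 (3769.5 CPM per kb in NG2 cells and 386 in sarcoma) and H2-Aa (2817 CPM per kb in NG2 cells and 155 in sarcoma) were in that list, beside ribosomal and mitochondrial genes.

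Of 983 protein-coding genes with at least 100 CPM in all 4 libraries, 101 rose and 85 fell. These shares were near those of all genes tested, 9.89% higher and 9.40% lower. The log2 fold changes nearest 0 were those of the phosphatase gene Ppp1ca (590.0 and 450.1 CPM in NG2 cells against 502 and 538 CPM in sarcoma), the ketone body enzyme Acat1 (141 and 117 CPM in NG2 cells against 135 and 123 CPM in sarcoma) and Mast4. Nras, Oaz1, Atp6ap1, Ncl and Zeb1 followed.

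The 2 sarcomas were also compared with each other, with no test. Of 7454 protein-coding genes with at least 20 CPM in one and 10 counts in the other, 339 differed by at least 2-fold and 62 by at least 4-fold. Higher in replicate 1 were Nppb, a natriuretic peptide gene (34.02 and 0.640 CPM), Clu (149 and 3.91 CPM), Apod (521 and 29.4 CPM) and Penk, Dynap and Tmem14c. Higher in replicate 2 were the keratin gene Krt18 (1.95 and 107 CPM), Igsf5 (0.453 and 26.9 CPM), Tnfrsf26 (7.13 and 253 CPM) and Xlr, Art3 and Plac8. For Krt18 and Tnfrsf26 the 2 sarcomas lay on either side of the NG2 libraries.

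Where sarcoma differed from the other tumour type was tested in the same model. Of 19024 genes, 16 were higher in soft tissue sarcoma than in osteosarcoma (0.0841% of those tested) and 11 were lower (0.0578%). These counts depended on the fit: DESeq2 called 1142 and 776, and edgeR with only the 4 tumour libraries called 0, with 1784 and 1289 at an unadjusted p under 0.05. The genes described next are protein-coding, with at least 10 counts over both libraries of the lower group and at least 20 CPM on average in the other. That limit leaves out Efemp1, which was at 283 and 180.1 CPM in soft tissue sarcoma against 0.114 and 0.0711 CPM in osteosarcoma (log2 fold change 11.18 ± 0.90, adjusted p = 0.0428). Podoplanin, Pdpn (chr4:143267431-143299564), a membrane glycoprotein of lymphatic vessels and fibroblasts, was at 159 and 205 CPM in soft tissue sarcoma, 2.71 and 4.37 CPM in osteosarcoma and, in NG2 cells, 8.15 and 14.6 CPM (log2 fold change against osteosarcoma 5.69 ± 0.49, adjusted p = 0.0428). Fosl1 was at 159 and 239 CPM against 6.75 and 4.16 CPM (log2 fold change 5.18 ± 0.46, adjusted p = 0.0428), so its level in osteosarcoma was near that of NG2 cells. Fez1 and Basp1, genes of axon growth, were 7.09 ± 0.46 and 3.99 ± 0.41 higher on the log2 scale. Tbx3 was at 85.3 and 98.1 CPM against 2.60 and 2.88 CPM, with NG2 cells at 45.5 and 59.3 CPM. The chemokine gene Ccl2 was at 885 and 823 CPM in soft tissue sarcoma and 62.2 and 44.3 CPM in osteosarcoma, and Ccl7 at 352 and 379 and 30.4 and 29.7 CPM in the same order.

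Lower than in osteosarcoma was Alpl, at 2.18 and 1.72 CPM against 407 and 1103 CPM (log2 fold change -8.59 ± 0.67, adjusted p = 0.0428). Col22a1 was at 0.789 and 1.01 CPM against 174 and 63.7 CPM, and Gpx3, a secreted glutathione peroxidase, at 94.8 and 66.9 CPM against 1958 and 2698 CPM. Btla, an inhibitory receptor of lymphocytes, was at 1.28 and 0.472 CPM in soft tissue sarcoma, 87.1 and 109 CPM in osteosarcoma and, in NG2 cells, 108 and 110.2 CPM, beside B cell markers that summed to 78.4 and 55.5 CPM in osteosarcoma. Wnt4, Adam23 and Fam102a were lower as well. Of 11 tested fibrillar collagens 0 were called between the tumour types. Osteosarcomas held 32201 and 19599 CPM of Col1a1, against the 2389 and 1779 CPM given above (adjusted p = 0.0731), while the difference in Col7a1 had an adjusted p of 0.126.

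**Figure D5:**
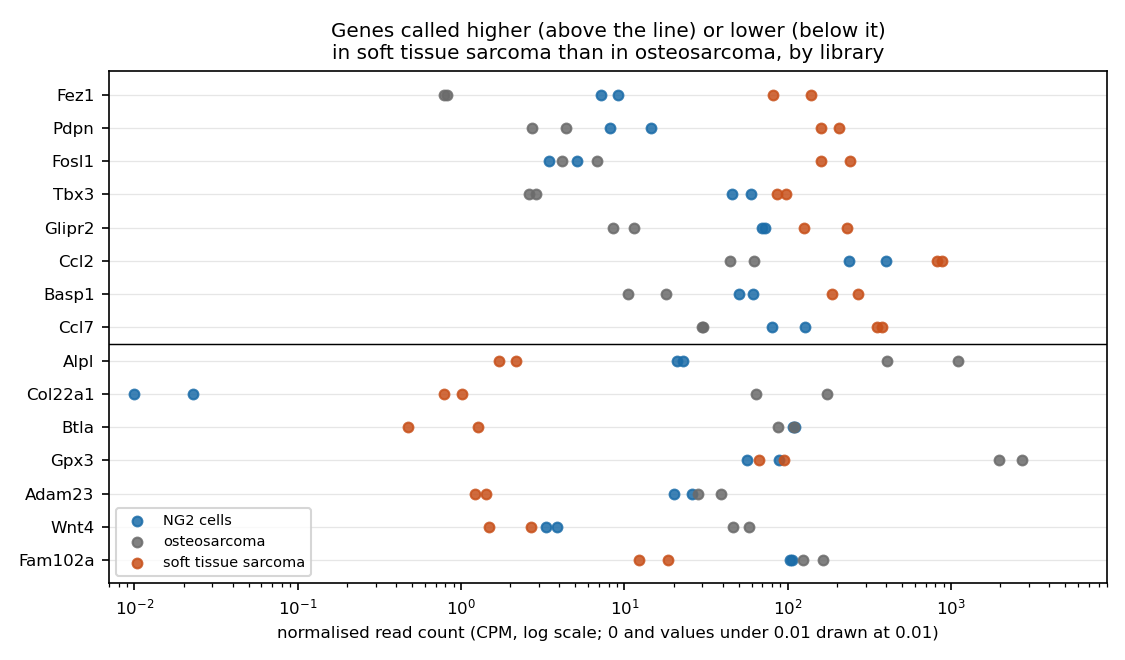
Normalised read counts (CPM, log scale) of 15 genes called higher (above the line) or lower (below it) in soft tissue sarcoma than in osteosarcoma, 1 point per library, with NG2 cells in blue, osteosarcoma in grey and soft tissue sarcoma in orange. The choice of genes requires that the 2 tumour types do not overlap; soft tissue sarcoma also lies above NG2 cells in all 8 genes above the line, and Btla is as high in osteosarcoma as in NG2 cells.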

How the data were processed

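Read counts per gene, deposited by the authors as 1 file per library, were used as they stand. STAR, HTSeq, DESeq2, Trim Galore, FastQC and cutadapt are named, with the builds GRCm38 and mm10 and no role or version, per the submitters' processing notes. RNA was copied with oligo(dT) priming and template switching from about 10 ng and amplified by PCR, per the labels' protocols, so reads are not independent molecules. The strand setting of the counting is not given in the sources used here: 81 of 322 named genes share exon bases with a gene on the other strand and 25 with one on the same strand, and their counts may hold reads of both (Timp4, Wnt5a, Hmga2, Col22a1, Fosl1, Plk1, Cdc20, Xist, Col7a1, Mzb1 and Spp1 among them).

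Rows with no gene were left out. Of 38561 gene IDs, 36723 were matched to GENCODE M21 names and coordinates (GRCm38). Genes passed edgeR's filterByExpr (minimum count 10), libraries were scaled by TMM, and 1 model with 3 groups was fitted to all 6 libraries (edgeR 4.0.16, R 4.3.3), with Benjamini-Hochberg adjustment over all genes tested. The fit had 3 residual degrees of freedom. SE is the absolute log2 fold change over the square root of F. Folds are those of the fitted log2 fold changes; where a group had 0 counts, a fold is the ratio of mean CPM to the level of 3 counts over both its libraries, given as "at least". Same-numbered replicates did not deviate together (correlations 0.0419, 0.000254 and -0.0837), so numbers were not used to pair libraries, and no 2 libraries of a group agreed within sampling noise. Alternatives were DESeq2 1.42.0, limma-voom (limma 3.58.1), glmTreat, other scalings and filters, 4 libraries only, X and Y or immunoglobulin genes left out, the replicate block and each library left out; limma-voom without each sarcoma library was chosen after seeing the data.

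The members of the comparison and all gene lists were chosen with earlier results of these data known. Named genes are Trp53 and Cspg4, the 12 largest rises and falls among genes called with no overlap, the 8 most abundant with 0 counts in the other group, the 10 most abundant per kb, up to 5 members of each list by p, lineage-defining members that did not pass, the 8 nearest 0, the 6 that differed most between sarcomas each way, and up to 8 each way against osteosarcoma. Named outside that rule, after their values were seen, were Tek, Sox10, Myh11, Col3a1, Col4a3, Twist2, Mdm2, Phlda3, Zmat3, Meg3, H19, Fos, Herpud1, Ddit3, Epas1 and Csf1, and Ccnb2 was named for its promoter. Some genes that the rule picks are not reported here.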

Additional observations from a re-analysis of the deposited data

Results flagged for a closer look

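Genes whose level differed between the 2 tumour types in the test of that difference (edgeR's quasi-likelihood F test, adjusted p under 0.05, all with groups that do not overlap) are given here as log2 fold changes of soft tissue sarcoma against osteosarcoma. Listed are up to 8 protein-coding genes in each direction, with at least 10 counts over both libraries of the lower group and at least 20 CPM on average in the other, and the called genes Efemp1 and Xist, which fall outside those limits; the other called genes are not listed. Higher in soft tissue sarcoma were Fez1 (7.093), Pdpn (5.687), Fosl1 (5.185), Tbx3 (5.066), Glipr2 (4.158), Ccl2 (4.003), Basp1 (3.994), Ccl7 (3.605) and Efemp1 (11.178). Lower were Alpl (-8.589), Col22a1 (-7.049), Btla (-6.768), Gpx3 (-4.848), Adam23 (-4.668), Wnt4 (-4.636), Fam102a (-3.219) and Xist (-10.242). The Y-linked Eif2s3y was at 55.4 and 34.9 CPM in soft tissue sarcoma against 8.83 and 0.0711 CPM in osteosarcoma, without passing the test. The sex of the animals is not stated, and its part in the difference in Xist was not tested. Both tumour groups were set against the same NG2 libraries in the model. Groups of 2 are too small to test for a library that stands apart.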

How the results depend on the processing

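All 3671 genes called against NG2 cells kept their direction in every fit in which they were tested, and so did all 27 called against osteosarcoma. Every fit reused the libraries that gave the calls, so a kept direction was largely set in advance and is no independent check. For genes higher and lower than in NG2 cells (1882 and 1789), counts were 3142 and 3274 with DESeq2, 677 and 760 with glmTreat against a log2 fold change of 1, 2671 and 2781 with only the 4 libraries compared, and 1105 and 1104 with the replicate block. Leaving out 1 library gave 0 to 2340 higher and 0 to 2358 lower, with 0 where either sarcoma was left out. limma-voom gave 0 and 0 without sarcoma replicate 1, with 2711 and 1998 at an unadjusted p under 0.05, and 156 and 91 without replicate 2. Scaling by total counts moved the share of calls that were higher from 51.3 to 57.8%.

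For genes higher and lower than in osteosarcoma (16 and 11, with 1766 and 1256 at an unadjusted p under 0.05), counts were 1142 and 776 with DESeq2, 50 and 30 with a minimum count of 50, 87 and 44 with limma-voom, 247 and 162 with no filter on low counts, and 4 and 4 with the replicate block. They were 0 and 0 with glmTreat (1037 and 694 unadjusted) and with only 4 libraries (1784 and 1289 unadjusted). Leaving out 1 library gave 0 to 183 higher and 0 to 132 lower, the highest without osteosarcoma replicate 2. limma-voom without either sarcoma library gave 0 and 0, with 1245 and 423 unadjusted without replicate 1. Of 2032 values of 254 named genes called against NG2 cells, each with 1 library left out, 1181 missed the threshold and none reversed. Depth limits genes near 0 counts, whose folds rest on few reads. The cause of these shifts was not tested. Every fit without 1 library has fewer residual degrees of freedom, whichever group the library came from.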

Other observations

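Metabolic genes outside glycolysis also changed. Among genes of amino acid and one-carbon metabolism, 8 of 30 tested rose and 4 fell (median 1.19, range 0.86 to 1.54). Bcat1, which starts the breakdown of branched-chain amino acids, had 15.2 and 8.05 CPM in NG2 cells against 112 and 166 CPM in sarcoma (11.96-fold, adjusted p = 0.00983, edgeR). Shmt2, the mitochondrial serine hydroxymethyltransferase, rose 3.65-fold. Odc1, the first enzyme of polyamine synthesis, fell 3.37-fold. Cholesterol synthesis genes rose in 4 of 23 tested members and fell in 1: Fdps, Mvk and Mvd rose 3.75-fold, 3.87-fold and 5.19-fold, and the transcription factor gene Srebf1 rose 3.35-fold, while Hmgcs1 fell 2.07-fold.

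Regulators of chromatin and DNA methylation fell in 10 of 34 tested members and rose in 5 (median -0.46, range -0.53 to -0.43). The histone H3 lysine demethylase genes Kdm6b and Kdm6a fell 7.55-fold and 5.70-fold. Kdm6b had 391 and 365 CPM in NG2 cells against 45.05 and 55.2 CPM in sarcoma (adjusted p = 0.00786, edgeR). Within the Polycomb group, Cbx7 fell 10.7-fold, whereas Cbx2 had 0 counts in NG2 cells and 4.68 and 5.26 CPM in sarcoma. Nsd2, a histone methyltransferase gene, rose 3.27-fold. Kdm6a lies on the X chromosome, and the sex of the animals and the group cannot be told apart.

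Genes often used as references were not all level. Of 23 tested, 5 rose and 0 fell. Gapdh had 285 and 279.7 CPM in NG2 cells against 812 and 1121 CPM in sarcoma (3.42-fold), and the proteasome gene Psmb4 rose 4.03-fold, while Actb was at 9374 and 7952 CPM in NG2 cells against 11179 and 10683 CPM in sarcoma and Rab7 at 334 and 298 CPM in NG2 cells against 313 and 300.2 CPM in sarcoma.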
